A study of Mus musculus with 12 samples.

Results

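The H3K27me3-only regions inside genes were stretches of chromatin in mouse mesenchymal stem cells (MSCs) called for trimethylation of lysine 27 of histone H3. They shared no base with a region called for acetylation of that residue, and the acetylation signal inside them was not measured. They overlapped the body of a protein-coding gene, away from the starts of protein-coding transcripts. They were taken from the H3K27me3 regions called by the authors as those on autosomes, longer than 1.5 kb and shorter than 100 kb, more than 1 kb from every start of a protein-coding transcript, overlapping a protein-coding gene and sharing no base with an H3K27ac region. This gave 5278 of 28047 regions, or 18.8%, in 2139 host genes. The rule used positions only and no signal value.

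The marks were profiled by CUT&RUN, in which an antibody tethers a nuclease that releases the DNA around a histone mark for sequencing. The MSCs, stromal progenitors that can form bone, fat and cartilage, were isolated from young mice aged 3 to 5 months or old mice aged 18 to 22 months, and all cells were cultured at 2% oxygen. Each age had 3 H3K27me3 libraries and 3 H3K27ac libraries, and the cells of each sample were shared between the antibody tubes. No genotype, strain or sex was given, the cells were read after culture rather than fresh from the animal, and nothing said that the libraries of an age came from separate animals, so that p-values measure only the spread between these libraries, which may be technical.

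H3K27me3 is laid down by Polycomb repressive complex 2, which spreads it over broad domains, and it is associated with genes that are kept silent. H3K27ac is placed on the same residue by the acetyltransferases p300 and CBP at active promoters and enhancers, so that a single histone tail can hold only one of these marks. In stromal cells, Polycomb domains are known to cover many genes of other lineages, such as neuronal and developmental genes.

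The H3K27me3 libraries held between 3622108 and 9947515 reads, with old replicate 2 the shallowest, and the regions of all kinds held 65.2% ± 2.5 of the reads in young cells and 58.0% ± 3.7 in old cells (SD, n = 3 each), the lowest being 53.8% in old replicate 3. H3K27ac regions lay over a promoter of 8 of 8 MSC markers, including Pdgfra and Ly6a, and of 0 of 6 skeletal muscle markers. Of the blood and macrophage markers, 2 of 12 had one, Csf1r and Cd68, and Ptprc, Itgam, Adgre1 and Spi1 had none. The summed H3K27ac signal of this list was between 108 and 117 in young and between 92.8 and 109 in old libraries. Among 7 endothelial markers, Pecam1 alone had an H3K27ac region, and the summed signal was between 6.53 and 8.22 in young and between 7.17 and 11.01 in old libraries. The part of blood or endothelial cells in the results was not tested.

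The H3K27me3-only regions inside genes that carried most signal per kb are shown first through their sequence, because CpG-rich DNA is where Polycomb complexes are known to be recruited in mammals. For each of the 5 regions, the window of 300 bases with the most CpG dinucleotides is given, among windows that share no base with an annotated UTR. Sequences run 5′ to 3′ on the plus strand of GRCm38 as in RefSeq, with CpG in capitals.

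Sptbn4, chr7:27364116-27364415: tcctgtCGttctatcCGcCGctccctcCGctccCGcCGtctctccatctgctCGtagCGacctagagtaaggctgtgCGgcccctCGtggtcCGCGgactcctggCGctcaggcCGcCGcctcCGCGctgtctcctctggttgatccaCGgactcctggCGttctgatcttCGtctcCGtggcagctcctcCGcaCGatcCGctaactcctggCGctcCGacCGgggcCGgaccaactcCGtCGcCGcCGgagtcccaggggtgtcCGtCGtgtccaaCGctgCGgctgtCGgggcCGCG
Kbtbd12, chr6:88567129-88567428: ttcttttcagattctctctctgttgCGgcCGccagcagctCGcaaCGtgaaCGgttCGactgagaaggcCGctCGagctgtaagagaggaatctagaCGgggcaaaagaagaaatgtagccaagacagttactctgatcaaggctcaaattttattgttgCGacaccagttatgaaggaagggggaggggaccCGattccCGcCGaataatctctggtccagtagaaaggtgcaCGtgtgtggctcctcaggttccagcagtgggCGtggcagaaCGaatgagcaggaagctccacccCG
Pcdh15, chr10:73099117-73099416: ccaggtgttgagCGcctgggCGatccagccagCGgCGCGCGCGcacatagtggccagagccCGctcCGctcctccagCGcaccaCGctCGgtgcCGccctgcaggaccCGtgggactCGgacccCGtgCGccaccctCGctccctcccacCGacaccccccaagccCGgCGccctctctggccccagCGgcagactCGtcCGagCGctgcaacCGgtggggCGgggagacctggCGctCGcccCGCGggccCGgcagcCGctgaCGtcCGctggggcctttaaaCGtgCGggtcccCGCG
Gpr132, chr12:112877598-112877897: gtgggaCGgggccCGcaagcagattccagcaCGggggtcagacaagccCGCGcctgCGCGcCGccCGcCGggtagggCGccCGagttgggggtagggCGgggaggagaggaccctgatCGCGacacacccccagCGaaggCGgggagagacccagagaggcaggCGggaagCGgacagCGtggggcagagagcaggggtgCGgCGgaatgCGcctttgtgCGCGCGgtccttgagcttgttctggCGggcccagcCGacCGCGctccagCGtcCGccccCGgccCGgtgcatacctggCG
Cfap43, chr19:47804672-47804971: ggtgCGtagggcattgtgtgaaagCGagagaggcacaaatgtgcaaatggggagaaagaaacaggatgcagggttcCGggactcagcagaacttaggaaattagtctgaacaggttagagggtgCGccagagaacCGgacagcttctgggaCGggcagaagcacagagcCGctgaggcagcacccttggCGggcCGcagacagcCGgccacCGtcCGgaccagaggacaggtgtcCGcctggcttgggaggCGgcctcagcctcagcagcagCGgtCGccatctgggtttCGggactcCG

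The Sptbn4 and Pcdh15 windows each held 39 CpG and the Gpr132 window 35, against 17 in the Kbtbd12 window and 18 in the Cfap43 window. The Sptbn4 window lay in coding exon sequence. The Pcdh15 window reached the first exon of a transcript of that gene annotated as a retained intron, which is no protein-coding transcript and therefore did not count as a start. Of all the H3K27me3-only regions inside genes, 89 lay within 1 kb of the start of a gene record in this sense. The Kbtbd12, Gpr132 and Cfap43 windows were intronic.

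The windows of the 3 called regions with the largest fall in old cells (Ephb1, Meis2 and Sorcs2), and of the 1 called region that rose (Reep1), are given in the same way for comparison.

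Ephb1, chr9:102260787-102261086: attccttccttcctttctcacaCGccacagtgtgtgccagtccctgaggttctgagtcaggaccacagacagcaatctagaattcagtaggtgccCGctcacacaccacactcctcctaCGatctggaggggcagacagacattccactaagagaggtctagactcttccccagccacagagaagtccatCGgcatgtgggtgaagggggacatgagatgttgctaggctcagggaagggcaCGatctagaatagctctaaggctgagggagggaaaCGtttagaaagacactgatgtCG
Meis2, chr2:116009195-116009494: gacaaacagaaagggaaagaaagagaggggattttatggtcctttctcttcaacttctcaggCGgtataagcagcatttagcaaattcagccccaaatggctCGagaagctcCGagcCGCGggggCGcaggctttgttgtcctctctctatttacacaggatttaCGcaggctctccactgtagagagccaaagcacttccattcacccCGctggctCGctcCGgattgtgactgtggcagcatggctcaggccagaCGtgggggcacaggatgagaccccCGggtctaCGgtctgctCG
Sorcs2, chr5:36259446-36259745: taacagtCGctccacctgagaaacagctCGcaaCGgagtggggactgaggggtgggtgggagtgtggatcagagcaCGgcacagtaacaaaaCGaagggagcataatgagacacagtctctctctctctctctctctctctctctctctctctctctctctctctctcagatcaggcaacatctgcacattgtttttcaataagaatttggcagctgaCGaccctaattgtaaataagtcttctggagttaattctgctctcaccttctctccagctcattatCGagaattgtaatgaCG
Reep1, chr6:71787645-71787944: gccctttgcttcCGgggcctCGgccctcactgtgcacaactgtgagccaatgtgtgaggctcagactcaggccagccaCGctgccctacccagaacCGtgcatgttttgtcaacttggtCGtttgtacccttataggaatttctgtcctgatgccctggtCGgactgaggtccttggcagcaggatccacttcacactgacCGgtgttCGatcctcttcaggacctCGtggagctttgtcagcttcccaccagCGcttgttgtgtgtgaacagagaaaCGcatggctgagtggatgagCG

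These intronic windows held 7, 14, 8 and 12 CpG, fewer than the windows of the 5 regions with most signal. Each window was the richest of its region, and these regions were 2 to 8 kb long against 9.5 to 46 kb. Longer regions offer more windows, so the window counts cannot compare CpG richness. The whole regions had 12.5, 14.8, 14.0 and 9.50 CpG per kb. Among the 5 regions with most signal, Kbtbd12 was below all of these values, at 9.41. The others were above them, at 20 in Sptbn4, 26 in Pcdh15, 19 in Gpr132 and 15.2 in Cfap43. A median H3K27me3-only region inside a gene had 8.67 CpG per kb.

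H3K27me3-only regions inside genes covered 77.9 Mb and had a median length of 9 kb, with the middle 50% between 5 and 18.5 kb. They lay far from promoters, at a median of 45.9 kb from the nearest protein-coding start, and in long genes of 227 kb at the median. Introns alone were touched by 2945 of them, or 55.8%, whereas 2333 covered at least part of an exon. Not all lay wholly inside a gene, as 754 (14.3%) reached beyond an end of their host gene. The nearest H3K27ac region lay at a median of 19 kb, and within 2 kb for 721 regions (13.7%). It directly adjoined the Sptbn4 region and lay 0.5 kb from a called region in each of Reep1, Magi1 and Prdm16. They were spread unevenly over genes, since 1170 host genes held 1 region each and 260 host genes held 5 or more, which together made up 43.6% of the regions. Neighbouring regions of a gene often belong to one domain and are not independent. In 121 cases a region overlapped more than 1 gene and was counted under the gene with the larger overlap.

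Their DNA differed little in base composition from that of the 12736 H3K27me3-only regions between genes and more from that of the 3472 H3K27me3-only regions at promoters. The median GC content was 42.9% inside genes, 41.9% between genes and 45.0% at promoters. A window of 300 bases with CpG-island-like composition (GC of at least 50% and a CpG observed over expected ratio of at least 0.6) was present in 18.7% of the regions inside genes, in 14.7% of those between genes and in 64.6% of those at promoters, which were longer, with a median of 22.5 kb.

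Genes whose promoter carried H3K27me3 held most of these regions. By the marks within 1 kb of its transcript starts, the host promoter had H3K27me3 without H3K27ac for 2891 regions (54.8%), both marks for 1135 (21.5%), H3K27ac without H3K27me3 for 802 (15.2%) and neither mark for 442 (8.37%), with no usable start for 8. Of 5311 autosomal protein-coding genes with H3K27me3 alone at the promoter, 20.2% held such a region, whereas 4.48% of 9491 genes with H3K27ac alone did. Genes with both marks were close to the former, at 18.4% of 1964. Regions of genes with H3K27ac alone at the promoter lay nearer to a start, at a median of 29.8 kb against 53.0 kb for genes with H3K27me3 alone.

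The longest stretches lay in a few very long genes. Zfhx3, which encodes a zinc finger homeobox transcription factor, had 462.5 kb under 10 regions, which is 45.4% of the gene. Auts2, a neurodevelopmental gene, had 427 kb under 27 regions. Fgfr2, the gene of a fibroblast growth factor receptor, followed with 394.5 kb under 13 regions, and Npas3, a neuronal bHLH-PAS transcription factor gene, with 380 kb under 25 regions. The annotated span of Fgfr2 in this gene set was 2961 kb, so that many of its regions lay far from its promoter, which carried H3K27ac alone. No region of these 4 genes was called between ages by limma, edgeR or DESeq2. At an unadjusted p under 0.05, limma gave 2 regions in Zfhx3, 3 in Auts2, 1 in Npas3 and 0 in Fgfr2. In Npas3, 22 of 25 regions had a log2 fold change above 0, with a median of 0.17. The summed scaled signal of its regions per kb was 1.39 ± 0.08 in young and 1.53 ± 0.09 in old libraries (SD, n = 3). All old libraries lay above all young libraries, but the lowest old value was 1.450 and the highest young value 1.448. Without the scaling between libraries, the groups overlapped.

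The level of each region was expressed as signal per kb, on which scale reads spread evenly over the genome would give 0.755. H3K27me3-only regions inside genes had a median level of 1.38, or 1.82 times this even spread, and 90% of them lay between 1.11 and 2.17. Only 23 of the 5278 regions were above 3. The Sptbn4 region (chr7:27362001-27382000), in the gene of the spectrin of the axon initial segment, had the highest level, at 4.69, and covered exons and introns. The Kbtbd12 region (chr6:88521501-88567500) followed at 3.97, and it ran past the end of the gene and touched its UTR. The Pcdh15 region (chr10:73094001-73104000), in the gene of a protocadherin of the hair cell tip link, had 3.81, the Gpr132 region (chr12:112868001-112888000), in a G protein-coupled receptor gene, 3.61, and the Cfap43 region (chr19:47795501-47805000), in a gene of motile cilia, 3.46. The Pcdh15 and Gpr132 regions also reached beyond their genes. The levels describe how these 5 regions were picked and were not tested.

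The 5 longest regions had levels nearer to the median. They were a 99.5 kb region in Tacr1, the gene of the substance P receptor, at 1.47, a 99.0 kb intronic region in Kirrel3, a cell adhesion gene, at 1.50, a 98.5 kb region in Arhgef28, a guanine nucleotide exchange factor gene, at 2.17, a 98.0 kb intronic region in Fgfr2 at 2.35 and a 98.0 kb region in Agbl4, a carboxypeptidase gene, at 1.48. Their log2 fold changes lay between -0.13 in Arhgef28 and 0.09 in Tacr1, with adjusted p from limma between 0.60 and 0.94.

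The age comparison asked whether these regions held more or less H3K27me3 in MSCs of old mice. As deposited, the median level was slightly lower in old cells. The median signal per kb was 1.447, 1.452 and 1.449 in the young libraries and 1.362, 1.380 and 1.361 in the old libraries. The groups did not overlap, with means of 1.449 ± 0.0025 and 1.368 ± 0.0109 (SD, n = 3 each). On the log2 scale the median fell by 0.09 as deposited. After scaling the libraries by the median of ratios over all regions (RLE), it was 0.55 ± 0.02 in young and 0.58 ± 0.04 in old libraries and the groups overlapped, so the direction of this small difference turned with the scaling. An exact two-sided permutation test of 3 against 3 libraries cannot give a p below 0.10, and none was used here.

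The share of all mapped reads that fell in these regions showed the same order. It was 6.33%, 6.54% and 6.49% in the young libraries and 6.05%, 6.003% and 5.80% in the old libraries, with means of 6.45% ± 0.11 and 5.95% ± 0.13. The 95% Wilson intervals, which cover counting error only, were at most 0.024 percentage points to either side. Of the reads within H3K27me3 regions of any kind, these regions held 10.2%, 9.82% and 9.74% in young and 9.96%, 10.1% and 10.8% in old libraries, where the groups overlapped. The part of the smaller share of reads in regions of any kind in the old libraries was not tested.

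**Figure D1:**
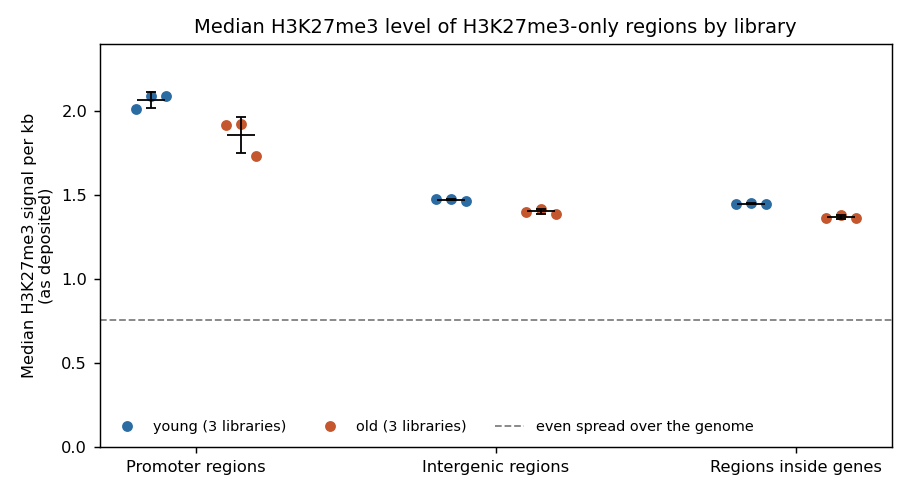
Median H3K27me3 signal per kb, as deposited, of the H3K27me3-only regions at promoters, between genes and inside genes, with 1 point for each of 3 young and 3 old libraries and the mean with SD in black. The dashed line marks the 0.755 of an even spread over the genome, and inside genes the young libraries sit at 1.447 to 1.452 and the old libraries at 1.361 to 1.380.

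The gap between regions inside genes and regions between genes did not separate the ages. The difference between their median log2 signal per kb was -0.04, -0.02 and -0.02 in the young libraries and -0.05, -0.05 and -0.03 in the old libraries. The means were -0.03 ± 0.01 and -0.04 ± 0.01 (SD, n = 3), and the groups overlapped. Against the promoter regions the difference was -0.46 ± 0.03 in young and -0.40 ± 0.08 in old libraries, which overlapped as well.

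Single regions were then tested with limma on log2 of the RLE-scaled signal plus 0.5, with p-values adjusted over all 28047 regions by the Benjamini-Hochberg method, with 0.05 as the threshold of the adjusted p for a call. Among the H3K27me3-only regions inside genes, 28 were called, or 0.531%, beside 0.488% of all regions. Of these, 27 were lower in old cells (0.406% of all regions were called lower) and 1 was higher. The edgeR quasi-likelihood test on recovered reads called 61, of which 9 were higher and 52 lower, and DESeq2 called 13, all lower. The count changed with each library left out, as 0 regions were called without young replicate 1 (406 at an unadjusted p under 0.05), 3 without young replicate 2, 1 without young replicate 3, 20 without old replicate 1, 54 without old replicate 2 and 34 without old replicate 3. The log2 fold changes of the 10 called falls described with their values lay between -1.75 and -1.29 with all libraries, between -1.92 and -1.23 without 1 young library and between -2.0 and -1.05 without 1 old library. At an unadjusted p under 0.05, 609 regions inside genes passed, 11.5% beside 13.9% of all regions, with 280 higher and 329 lower. The old and young libraries did not overlap in 894 regions, which is 16.9% beside 19.1% of all regions, so neither share set the regions inside genes above the whole table.

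The median log2 fold change over the 5278 regions was 0.02, beside -0.01 over all regions, and 52.9% of them had a fold change above 0. As deposited, without scaling between libraries, these medians were -0.10 and -0.13, and 33.4% were above 0. The median spread between replicates of a region was 0.21 on the log2 scale (SD).

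**Figure D2:**
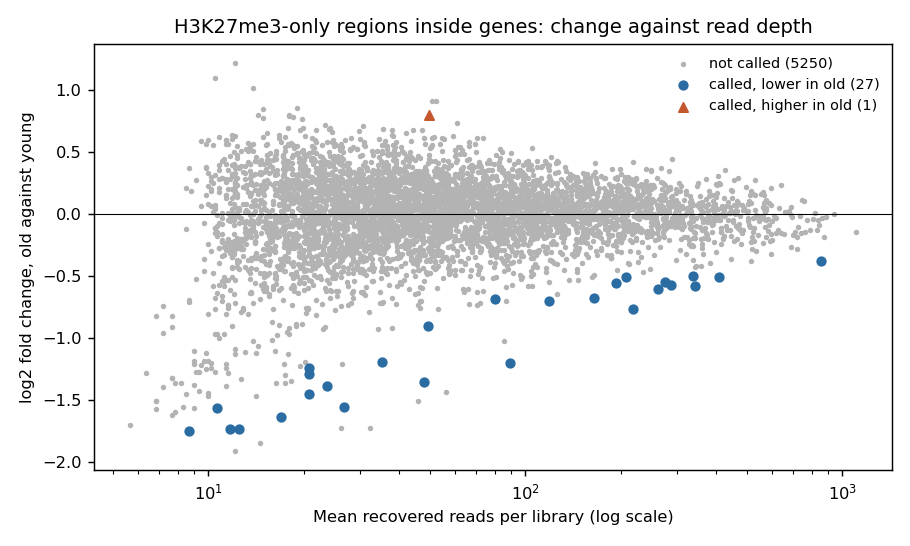
Each point is an H3K27me3-only region inside a gene, placed by its mean recovered reads per library (log axis) and its limma log2 fold change, old against young. The 27 regions called lower are blue circles and lie from 8.67 to 855 mean reads, and the 1 region called higher is an orange triangle.

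Falls were frequent among regions with few reads. The deposited table gives 1 set of regions for both ages, and how it was called is not given in the sources used here. Its part in the direction was not tested. Of 49 regions inside genes with a mean under 10 reads, 39 had a log2 fold change below 0, beside 1192 of 1523 over all H3K27me3 regions. Of the 75 regions inside genes below -1, 60 had a mean under 20 reads, whereas 3 regions lay above 1. The young mean was below the even-spread level in 0 regions and the old mean in 84. Of the 27 regions called lower, 10 had an old mean below that level and all 5 called regions with a mean under 20 reads had at most 2 reads in old replicate 2, the shallowest library.

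Among the called regions, the fitted fold change was lowest in Ephb1, which encodes a receptor of ephrin-B ligands in axon guidance. The region (chr9:102259501-102261500) is intronic, 2 kb long and 93.2 kb from the nearest start. It directly adjoins a 12.5 kb region of the same gene at -0.42, which was not called. The H3K27me3 region over the gene's start was not called either, at -0.25. In the 2 kb region, the libraries held 19, 14 and 13 reads in young and 2, 1 and 3 reads in old cells. This is a scaled ratio of old to young of 0.190 with a 95% counting interval of 0.0664 to 0.447. Each old library was below each young one, and the fit gave a log2 fold change of -1.75 with an SE of 0.37 (adjusted p from limma 0.039). The fitted value is on the log2(signal + 0.5) scale and depended on the pseudocount at these few reads, with -1.01 at a pseudocount of 2, -2.23 at 0.1 (not called, adjusted p = 0.078) and -2.33 with edgeR.

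Meis2, which encodes a TALE homeodomain transcription factor, came next among the called regions, with an intronic region of 2.50 kb (chr2:116008001-116010500). Scaled signal per kb was 1.82, 1.29 and 2.20 in young and 0.349, 0.227 and 0.634 in old libraries, without overlap, and the log2 fold change was -1.73 ± 0.36 (adjusted p = 0.039), or -1.09 with a pseudocount of 2. All 4 H3K27me3-only regions inside this gene were below 0, with a median log2 fold change of -1.36, and the promoter carried both marks. The H3K27me3 region over the gene's start, which is not one of these 4, was also called lower, at -1.74 (limma adjusted p = 0.00018).

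Intronic regions of 4 more genes fell to between 26.2% and 34.9% of the young mean. In Magi1 (chr6:94090501-94094500), which encodes a scaffold protein of cell junctions, scaled signal per kb was 1.43, 1.71 and 1.31 in young and 0.546, 0.142 and 0.634 in old libraries, with a log2 fold change of -1.64 ± 0.36. In Fam49a (chr12:12328001-12330500), whose product binds the GTPase Rac1, it was 1.50, 1.53 and 1.67 against 0.524, 0.455 and 0.254, with -1.56 ± 0.35, or -0.97 with a pseudocount of 2. In both genes the 3 old libraries lay below the young libraries without overlap. In Plppr1 (chr4:49195001-49202000), a gene of a neuronal membrane protein, scaled signal per kb was 1.38, 1.03 and 1.57 against 0.561, 0.163 and 0.634, with -1.55 ± 0.34. In Col25a1 (chr3:130301001-130305000), which encodes a membrane collagen of neurons, it was 2.12, 1.71 and 2.48 against 0.546, 0.711 and 0.951, with -1.39 ± 0.27. The adjusted p of these 4 regions lay between 0.028 and 0.048. The Fam49a region directly adjoins a 49 kb region at -0.34, and the Col25a1 region lies between adjoining regions at -0.49 and -0.36. These neighbours were not called. The H3K27me3 region over the gene's start was called in Plppr1, at -0.64 (limma adjusted p = 0.039), and not in Fam49a (-0.10) or Col25a1 (-0.22).

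Prdm16, the gene of a zinc finger regulator of brown fat fate, had the most called regions. It lies on the minus strand of chromosome 4, and its promoter carried H3K27me3 without H3K27ac. All 12 of its H3K27me3-only regions inside the gene were below 0, with log2 fold changes between -1.45 and -0.30, and 5 of them were called. Summed over the 12 regions, scaled signal per kb was 2.03, 1.83 and 2.06 in young and 1.24, 1.12 and 1.28 in old libraries. All old libraries were lower, at 61.4% of the young mean. The called region with the largest fall (chr4:154548501-154552000) held 33, 35 and 35 reads in young and 9, 5 and 8 in old libraries, with a log2 fold change of -1.45 ± 0.27 (limma adjusted p = 0.024). It directly adjoins a called region of 30.5 kb at -0.55 ± 0.11, so these were not separate domains. A further region (chr4:154363501-154368000), over exon and intron, had scaled signal per kb of 1.49, 1.70 and 1.51 in young and 0.631, 0.379 and 0.775 in old libraries, with -1.29 ± 0.28. It lies between adjoining regions at -0.74 and -0.71, which were not called. Outside the 12 regions, a 91 kb H3K27me3 region of the gene was called, at -0.70 (limma adjusted p = 0.016). The H3K27me3 region over the gene's start was not called, at -0.25.

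Sorcs2, which encodes a sorting receptor of neurons, showed the same picture along its length. All 14 regions were below 0, between -1.73 and -0.47, and 4 were called. Summed scaled signal per kb was 2.05, 1.65 and 1.72 in young and 0.936, 1.26 and 1.10 in old libraries, all old libraries being lower. The intronic region with the largest fall (chr5:36258001-36260500) held 33, 17 and 14 reads in young and 7, 1 and 3 in old libraries, with a log2 fold change of -1.73 ± 0.37 (adjusted p = 0.041), or -1.10 with a pseudocount of 2. A larger intronic region (chr5:36127001-36134000) held 96, 72 and 64 reads in young and 21, 15 and 19 in old libraries, with -1.36 ± 0.22 (adjusted p = 0.0078). The region with the largest fall lies between adjoining regions at -0.53 and -0.28, and the larger one adjoins a region at -0.47. These neighbours were not called. The promoter of Sorcs2 carried both marks, and the H3K27me3 region over its start was not called, at -0.07.

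St6galnac3, which encodes a sialyltransferase, also had more than 1 called region. In this gene 16 of 17 regions were below 0, of which 2 were called, at -1.24 and -0.54. The former directly adjoins a region at -0.41, which was not called. The H3K27me3 region over the gene's start, which is not one of the 17, was also called lower, at -0.52 (limma adjusted p = 0.018). Summed over the 17 regions, scaled signal per kb was 1.83, 1.67 and 1.72 in young and 1.16, 1.05 and 1.22 in old libraries, without overlap. As deposited, all 12, 14 and 17 regions of Prdm16, Sorcs2 and St6galnac3 were below 0.

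**Figure D3:**
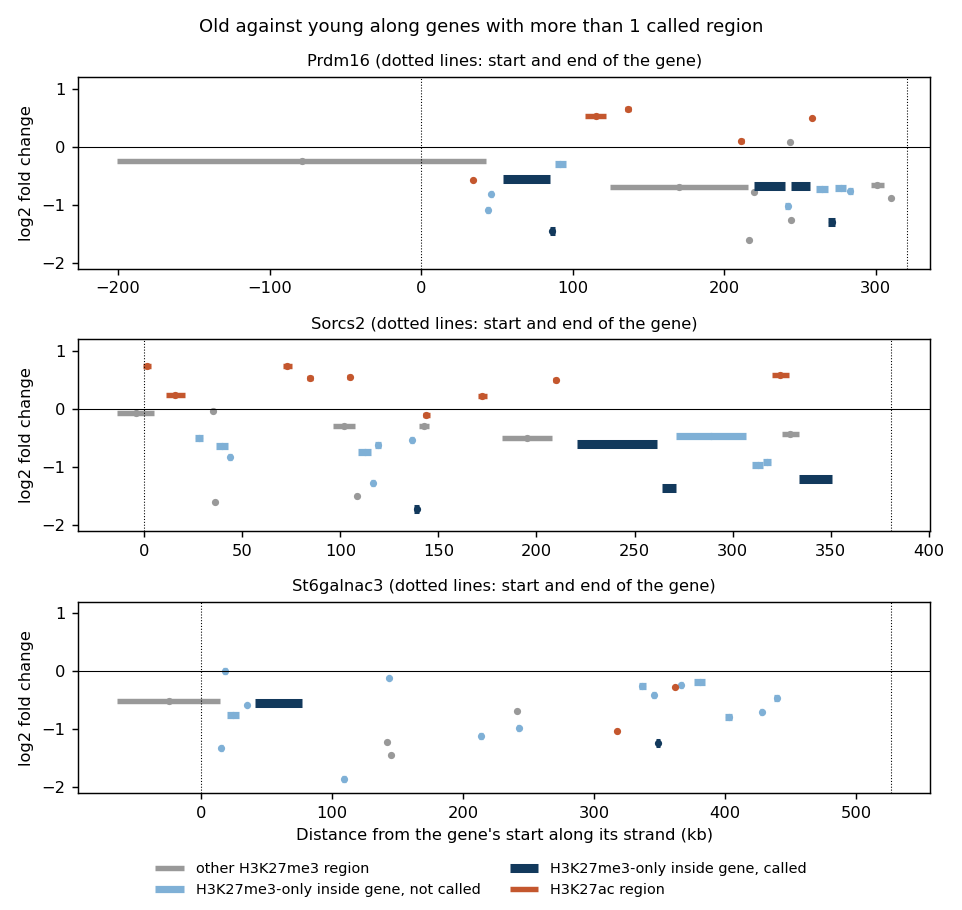
Limma log2 fold change, old against young, of every H3K27me3 and H3K27ac region along Prdm16, Sorcs2 and St6galnac3, drawn at its distance from the gene's start in kb, with bars as long as the regions. The H3K27me3-only regions inside these genes (light blue, called ones dark blue) lie below 0 except 1 in St6galnac3 at 0.01, and 12 of 14 H3K27ac regions (orange) of Prdm16 and Sorcs2 lie above 0, of which 0 were called.

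The remaining called regions were longer and fell less. Excluding the 10 largest falls, 17 regions of 3.5 to 94.5 kb in 11 genes were called lower, with log2 fold changes between -1.24 and -0.38 and mean reads between 20.8 and 855. Further genes among them, named after their values were seen, were Slco3a1, Maml3, Plekhg1, Hs6st3, Barx2, Ptprn2 and Chd7. In Slco3a1, an organic anion transporter gene, the 21.5 kb intronic region had scaled signal per kb of 3.31, 2.97 and 3.19 in young and 1.95, 1.96 and 1.64 in old libraries, with a log2 fold change of -0.77 ± 0.11 (limma adjusted p = 0.0043). All 4 of its regions were below 0. In Maml3, a Notch coactivator gene, a 16 kb intronic region had -0.70 ± 0.14. Other genes were mixed along their length, with 6 of 8 regions below 0 in Maml3, 2 of 4 in Plekhg1 and 3 of 8 in Ptprn2. In Hs6st3 it was 13 of 14. In Barx2, a homeobox gene, a 48.0 kb region running past the gene had -0.50 ± 0.10. In Chd7, a chromatin remodeller gene, the 94.5 kb region had 2.44, 2.68 and 2.54 in young and 2.13, 1.88 and 1.88 in old libraries, with -0.38 ± 0.09, the smallest change among the called regions.

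The single called rise was in Reep1, which encodes a protein that shapes the endoplasmic reticulum in neurons. Its intronic region (chr6:71785001-71793000) had scaled signal per kb of 1.21, 1.23 and 1.21 in young and 1.91, 2.13 and 2.46 in old libraries. All old libraries were higher, at 178% of the young mean, and the log2 fold change was 0.79 ± 0.17 (limma adjusted p = 0.046). The other 2 regions of Reep1 were not called, and the lowest of its 3 fold changes was 0.24.

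**Figure D4:**
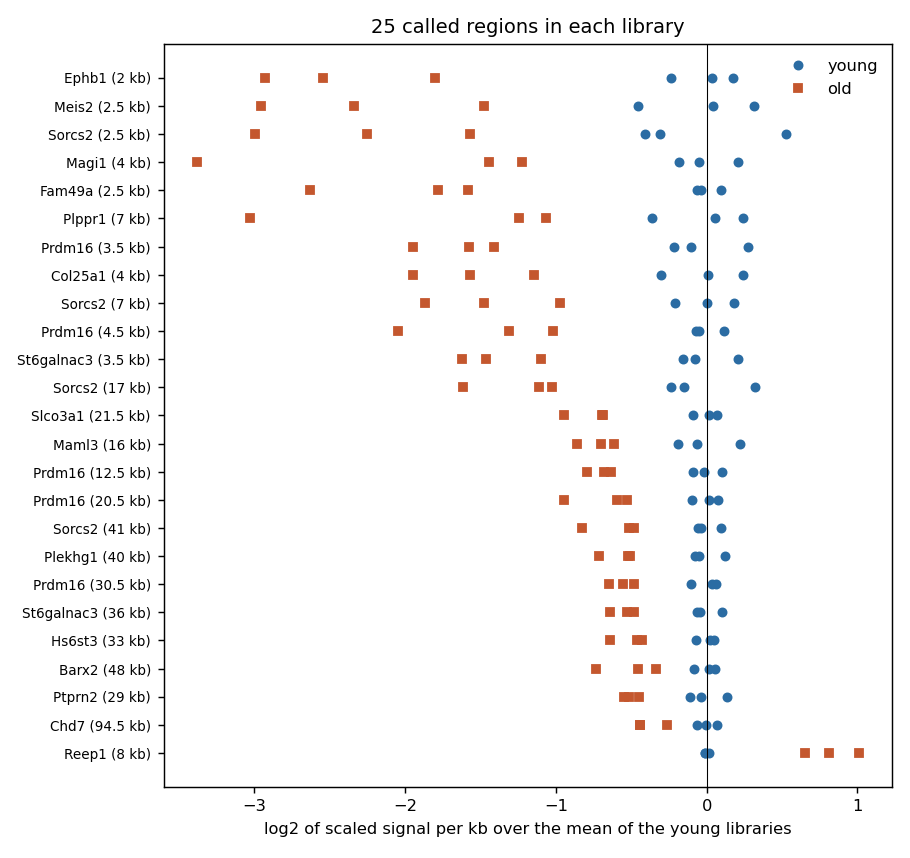
Scaled H3K27me3 signal per kb of 25 called regions in each library, as log2 over the mean of the young libraries, with young libraries as circles and old libraries as squares. The ages do not overlap in any of the 25 regions, which were picked on this contrast, and in Reep1, at the bottom, the old libraries lie to the right.

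H3K27ac was read along the same 18 host genes from the matched libraries. In 7 of them no H3K27ac region was present, and the other 11 held 64. With the same limma fit, 0 of the 64 were called, beside 0.0822% of all 31617 H3K27ac regions, and 10 had an unadjusted p under 0.05, beside 9.60% of all. No other tool was run for this mark. Of the 64, 42 had a log2 fold change above 0, with a median of 0.12, beside 49.6% above 0 and a median of -0.0028 over all H3K27ac regions. In Sorcs2, 8 of 9 H3K27ac regions were above 0, with a smallest adjusted p of 0.23. In Prdm16 it was 4 of 5, with a smallest adjusted p of 0.22, whereas both H3K27ac regions of St6galnac3 were below 0.

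By host promoter, the regions inside the gene had a median log2 fold change of 0.01 with H3K27me3 alone and 0.01 with both marks. It was 0.04 with H3K27ac alone and 0.02 with neither mark. In this order, limma called 20 of 2891 regions (0.692%), 7 of 1135 (0.617%), 1 of 802 (0.125%) and 0 of 442. Over all regions it called 0.488%. With neither mark, 51 regions (11.5%) had an unadjusted p under 0.05 by limma, beside 13.9% of all regions. In that class edgeR called 2 and DESeq2 called 0. As deposited, all 4 medians were below 0, between -0.11 and -0.08. Medians by library were taken of the log2 scaled signal relative to each region's young mean. They overlapped between ages for H3K27me3 alone and for both marks, and did not for H3K27ac alone. There they were -0.0044, 0.0061 and 0.010 in young and 0.013, 0.087 and 0.030 in old libraries.

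After scaling between libraries, the median log2 fold change was lower in classes of regions with more CpG. In the 601 regions with up to 5 CpG per kb the median log2 fold change was 0.09, in the 1525 regions with 10 to 15 it was -0.03, and in the 356 regions with more than 15 it was -0.09. The median level was 1.50 per kb in the most CpG-rich class and 1.31 in the most CpG-poor class. To compare libraries, log2 signal was taken relative to each region's young mean, which holds the young values near 0. On this scale, the median of the most CpG-rich class minus that of the most CpG-poor class was 0.00043, 0.057 and -0.053 in the young libraries. In the old libraries it was -0.16, -0.067 and -0.23. Every old library thus had relatively less signal in CpG-rich regions than every young library. As a description, the Spearman correlation of CpG per kb with the log2 fold change was -0.19 over the 5278 regions inside genes and -0.21 over all 28047 regions, which share the same 6 libraries, so it was a feature of the whole table.

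**Figure D5:**
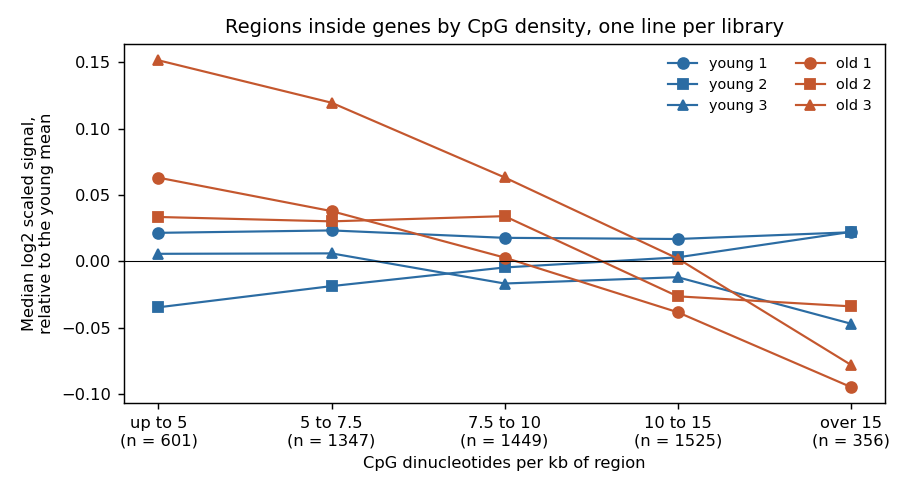
Median log2 scaled H3K27me3 signal of the H3K27me3-only regions inside genes, relative to the mean of the young libraries, in 5 classes of CpG per kb, with 1 line per library. The lines of the 3 young libraries stay between -0.047 and 0.023, and those of the 3 old libraries run from between 0.03 and 0.15 in the CpG-poor class to between -0.095 and -0.034 in the CpG-rich class.

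Host genes were then grouped by function, using lists chosen with earlier results of these data known. Over all H3K27me3 regions, 0.488% were called by limma and 13.9% had an unadjusted p under 0.05, and the counts of each list are given with their own share. As deposited, without scaling between libraries, 774 of all 28047 regions were called and their median log2 fold change was -0.13. The counts of each list as deposited stand beside that larger number. Developmental transcription factors had the most called regions, 6 of 89 in 25 genes, all lower, 5 of them in Prdm16 and 1 in Meis2, beside 9 by edgeR and 2 by DESeq2, all lower too. At an unadjusted p under 0.05, 2 of the 89 were higher and 20 lower (24.7%), and the median log2 fold change was -0.11, or -0.21 as deposited with 10 called. The highest levels in this list were 3.44 in a region of Prdm6 and 2.54 in a region of Bcl11b, a zinc finger gene of neurons and T cells. Neither was called, at log2 fold changes of -0.15 ± 0.10 and -0.18 ± 0.11.

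Neuronal adhesion genes held the most regions, 194 in 26 of 43 genes, and 0 were called by limma, edgeR or DESeq2. At an unadjusted p under 0.05, 6 were higher and 20 lower (13.4%), the median log2 fold change was -0.09, and as deposited it was -0.20 with 6 called. The highest levels were 2.75 in Dlgap2 and 2.42 in Dlg2, which encode postsynaptic scaffold proteins. The smallest p was in an intronic region of Sdk1, a synaptic adhesion gene, with scaled signal per kb of 1.98, 1.81 and 2.22 in young and 0.546, 0.853 and 0.793 in old libraries and a log2 fold change of -1.21 ± 0.33, which was not called (adjusted p = 0.089).

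Cadherin genes had 43 regions in 15 genes, of which limma and DESeq2 called 0 and edgeR 1, with 1 higher and 9 lower at an unadjusted p under 0.05 (23.3%) and a median of -0.11, or -0.23 as deposited with 2 called. The Pcdh15 region with 3.81 signal per kb belongs here, with 3.91, 4.41 and 4.58 in young and 3.54, 3.07 and 3.17 in old libraries and a log2 fold change of -0.39 ± 0.12 (limma adjusted p = 0.14), and as deposited it was called at -0.51 (adjusted p = 0.037). A region that reaches past Cdh1, the gene of E-cadherin, had a level of 2.18 and -0.03 ± 0.10. In Cdh4 an intronic region had 1.38, 1.21 and 1.83 in young and 0.655, 0 and 0.423 in old libraries, with -1.91 ± 0.47 and 12.2 mean reads, and was not called (adjusted p = 0.072).

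Glutamate and GABA receptor genes had 57 regions in 15 genes and voltage-gated channel genes had 82 in 23 genes, and 0 of either were called by limma, edgeR or DESeq2. At an unadjusted p under 0.05, 8 (14.0%) and 5 (6.10%) regions passed, and the medians were 0.03 and 0.02, turning to -0.09 and -0.10 as deposited. In Gabrp the level was 2.29 and the log2 fold change 0.16 ± 0.09, and in Gabrr3 1.70 and -0.04 ± 0.10. Grid1 had the smallest p of the receptor genes, at -1.32 ± 0.39 with 7.67 mean reads (adjusted p = 0.12). Cacna1d and Cacna1a had levels of 2.37 and 2.29, with -0.04 ± 0.10 and -0.15 ± 0.12. Cacna1b, the gene of the N-type calcium channel, went the other way, with scaled signal per kb of 1.26, 1.23 and 0.942 in young and 1.98, 1.97 and 1.56 in old libraries and 0.65 ± 0.20, and it was not called (adjusted p = 0.12).

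Axon guidance genes had 74 regions in 19 genes, of which the Ephb1 region was the only one called by limma, beside 3 by edgeR and 0 by DESeq2. At an unadjusted p under 0.05, 1 was higher and 6 lower (9.46%), with a median of 0.01 that became -0.11 as deposited. Plxna4, a semaphorin co-receptor gene, had the highest level, at 2.55, and a log2 fold change of -0.24 ± 0.13, and Epha6 had 1.92 and 0.05 ± 0.11. Collagen and matrix genes had 83 regions in 25 genes, 1 called, in Col25a1 (2 by edgeR and 0 by DESeq2), with a median of -0.05 and 8 higher and 11 lower at an unadjusted p under 0.05 (22.9%). As deposited, 6 were called and the median was -0.16. Col13a1 and Col26a1 had the highest levels, 2.75 and 2.51, with 0.01 ± 0.10 and -0.12 ± 0.11. All 15 regions of Col25a1 were below 0.

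Muscle and sarcomere genes had 64 regions in 16 genes, 0 of them called by limma, edgeR or DESeq2 and 1 higher and 3 lower at an unadjusted p under 0.05 (6.25%), with a median of 0.03 that became -0.09 as deposited. Sgcd, a sarcoglycan gene, had a region with a level of 2.45 and scaled signal per kb of 2.77, 2.82 and 2.59 in young and 2.41, 1.92 and 2.09 in old libraries, with a log2 fold change of -0.35 ± 0.12 (adjusted p = 0.17). Genes of the Wnt and BMP pathway had 16 regions in 8 genes, 0 called by limma or DESeq2 and 1 by edgeR, with 2 higher and 0 lower at an unadjusted p under 0.05 (12.5%). Dkk2, which encodes a secreted Wnt inhibitor, had scaled signal per kb of 1.28, 1.34 and 1.38 in young and 1.98, 1.47 and 1.74 in old libraries. The ages did not overlap after scaling but did as deposited, and the log2 fold change was 0.36 ± 0.11 (limma adjusted p = 0.14). Bmp6 had 0.08 ± 0.30. Of 13 osteogenic and 10 adipogenic genes, 0 held an H3K27me3-only region inside the gene.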

How the data were processed

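The authors deposited, for each mark, 1 table of signal per region and library. The deposited signal is the reads of a region scaled to a common library total and a constant 0.5 kb, not to the region's length, and 100% of values gave whole reads within 0.1. The labels list Bowtie2 and Picard and the build mm10 (GRCm38). The region caller is not given in the sources used here, and the yeast DNA added in the assay was not analysed here.

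Levels are deposited signal divided by region length. Regions were placed with GENCODE M21 (basic set, protein-coding transcripts) and GRCm38 sequence from RefSeq. Tests used limma 3.58.1 in R 4.3.3 (trend, robust) on log2(RLE-scaled signal + 0.5), two-sided. Alternatives used edgeR 4.0.16 and DESeq2 1.42.0 on recovered reads. The fit was tested on simulated data. The H3K27ac fit was added after the data were seen.

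The regions and the gene lists were chosen with earlier results of these data known. Named regions were the 10 called falls (and rises) of largest size without overlap between ages, the 5 with the highest level, the 5 longest, the 5 host genes with most bases covered, and per list the 2 highest levels and the smallest p. List entries given as a family name took that name plus a number or subtype letter, which left out Adamtsl and Ntng genes. Results for a few genes are not reported here.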

Additional observations from a re-analysis of the deposited data

How the results depend on the processing

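In old replicate 2, 1075 of 5278 regions had under 10 reads, and p-values rest on 3 libraries per age. The part of depth in the number of calls was not tested. Over all 28047 regions, limma called 137 with scaling between libraries and 774 as deposited. Among the regions inside genes, the 28 calls became 126 as deposited, 61 with edgeR, 13 with DESeq2 and 1 without trend and robust moderation. They became 14 with a pseudocount of 0.1 and 15 with a mean of at least 10 reads, and leaving out 1 library gave 0 to 54. With a replicate block there were 47 calls, 3 of them higher and 27 shared with the 28, but same-numbered libraries correlated at only 0.02, 0.04 and -0.08 and not every library correlated best with its own number, so the numbers mark no pairs. The median log2 difference of -0.09 became 0.031 with RLE scaling and -0.13 as a mean over regions. The medians by host promoter became -0.11 (H3K27me3 alone), -0.11 (both), -0.077 (H3K27ac alone) and -0.094 (neither) as deposited, and that for H3K27ac alone became 0.013 with a promoter window of 5 kb. The other counts, shares and contrasts, including the comprehensive transcript set chosen after seeing the data, stayed within 1.5 times the count or 1 SD of the value. The cause was not tested.

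Of 41 named regions, 11 changed sign under some setting, none of them called. As deposited, Cfap43 was -0.047, Tacr1 -0.034, Kirrel3 -0.075, Epha6 -0.075, Col13a1 -0.11 and Bmp6 -0.029. With edgeR, Dlgap2 was 1.5e-06 and Bmp6 -0.022. Leaving out 1 library gave -0.10 to 0.029 in Fgfr2, -0.058 to 0.038 in Dlgap2, -0.087 to 0.020 in Gabrr3, -0.11 to 0.055 in Cacna1d, -0.11 to 0.073 in Cdh1, -0.042 to 0.065 in Col13a1 and -0.24 to 0.34 in Bmp6. Calls were gained as deposited in Kbtbd12, Pcdh15, Sdk1, Cdh4 and Sgcd, with edgeR in Cdh4 and Dkk2, with a pseudocount of 2 and with the block in Cdh4, without old replicate 2 in Sdk1, Grid1 and Dkk2 and without old replicate 1 in Cdh4. Of the 11 called regions described with their values, 0 stayed called without young replicate 1 or without young replicate 3, 1 without young replicate 2, 4 without old replicate 1, 8 without old replicate 3 and 11 without old replicate 2. Without trend and robust moderation 1 of the 11 stayed called, and with a pseudocount of 0.1 it was 3. With a mean of at least 10 reads, 3 of the 10 regions tested stayed called. With DESeq2, 2 of the 11 could be compared and 1 stayed called. All 11 stayed called as deposited, with edgeR, with a pseudocount of 2 and with the block.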

Other observations

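Of the 260 host genes with 5 or more H3K27me3-only regions, 27 had every region below 0 and 22 had every region above 0. By the summed scaled signal the larger count was of higher genes, as all old libraries lay above all young libraries in 43 of the 260 genes and below them in 32. Both counts rest on the scaling between libraries and were not repeated as deposited. The genes named here were picked after their values were seen, and regions of a gene are not independent. Besides the genes with called regions, all 12 regions of Ntrk2, the gene of a neurotrophin receptor, were below 0, with a median log2 fold change of -0.52, but their summed signal overlapped between ages. All 7 of Sdk1 (median -0.65) and all 13 of Tenm3 (median -0.32), both neuronal adhesion genes, were also below 0, and their summed signal in the old libraries lay below all young libraries, at 66.8% and 79.8% of the young mean. In the other direction, all 5 regions of Gria2, an AMPA receptor gene, were above 0, with a median of 0.34. So were all 7 of Syne1, a nuclear envelope gene (0.30), and all 7 of Stk32b, a kinase gene (0.28). Their summed scaled signal was at 123%, 124% and 125% of the young mean, without overlap between ages. As deposited, the summed signal of Gria2 overlapped between ages, whereas that of Syne1 and Stk32b did not. No region of these 6 genes was called by limma, edgeR or DESeq2, and 4 of Stk32b, 2 of Syne1 and 2 of Gria2 had an unadjusted p under 0.05, as had 5 of Ntrk2, 5 of Sdk1 and 3 of Tenm3.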
